A study of Mus musculus with 6 samples.

Results

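Ion channels set the membrane potential of microglia, the resident macrophages of the brain, and their transcripts were examined in microglia that overexpress PGC-1α. The set was chosen by gene name, with earlier results of these data known, and holds 10 channels. These were the K2P channels Kcnk13 (THIK-1), Kcnk12 (THIK-2) and Kcnk6 (TWIK-2), the inward rectifier Kcnj2 (Kir2.1), the voltage-gated Kcna3 (Kv1.3), the calcium-gated Kcnn4 (KCa3.1), the proton channel Hvcn1 (Hv1), the cation channels Trpm2 and Trpv2, and the chloride channel protein Clic1. All probes whose transcript accession belongs to one of these genes were taken, 16 probes for 10 of the 23462 genes with a probe on the array. Of these, 12 probes for 9 genes were bright enough to be tested, among 13100 genes tested in all. No channel probe passed an adjusted p of 0.05. Trpm2 was higher in mPGC-1α microglia and Kcnk12 and Kcnj2 were lower, each with groups that did not overlap. Over all genes the groups did not overlap for 12.2% (higher) and 10.8% (lower), and the set is too small to read a departure. Kcnk13 was lower on every mPGC-1α array than on the 2 control arrays with a value.

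At rest, a microglial cell is held at a negative potential mainly by potassium leaving through two-pore-domain (K2P) channels, of which THIK-1 is known as the dominant one in these cells. THIK-1 is known to support process ramification and surveillance, and potassium leaving through it and other channels is a trigger of the NLRP3 inflammasome, which releases the cytokine IL-1β. Inwardly rectifying, voltage-gated and calcium-gated potassium channels appear or strengthen when microglia become reactive. Hv1 lets protons out while the NADPH oxidase produces superoxide, and Trpm2 admits calcium under oxidative stress. The product of Ppargc1a, PGC-1α, coactivates transcription of genes for mitochondria.

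Arrays were made of 6 microglia samples, labelled male and 10 weeks old, and of a C57BL/6 background per the study's methods, with 3 arrays per group. The controls, PGC-1αf/f mice, carry a loxP-controlled PGC-1α transgene with an eGFP tag and no Cre. The mPGC-1α mice carry the same allele and a tamoxifen-inducible Cre in the Cx3cr1 locus, which is active in microglia and in other Cx3cr1-expressing cells. In the study's methods tamoxifen was given before a waiting interval, and whether the control mice of the arrays received it is not stated in the sources used here. Cells were selected with magnetic beads for the surface receptor P2RY12, at rest and without stroke per the study's text.

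Values below are log2 array signals after subtracting that array's 75th percentile, which lay between 1012 and 2138 intensity units, and levels of different probes are not compared. The 6 arrays shared 1 slide, where row 1 held the PGC-1αf/f arrays and row 2 the mPGC-1α arrays, so slide row and group cannot be told apart. Ppargc1a itself differed by 0.80 between mPGC-1α and PGC-1αf/f microglia on the log2 scale (SE 0.35, limma adjusted p = 0.306), with overlapping groups, and by 0.44 without PGC-1αf/f replicate 3. Another probe of the gene gave 0.59 (SE 0.38, limma adjusted p = 0.445), or 0.26 without that array. PGC-1αf/f replicate 3 stood apart, correlating on average at 0.928 with the other arrays against 0.962 to 0.972 for the rest, and mPGC-1α replicate 3 had 0 of 4 Y-linked genes well above background against 4 of 4 on every other array. Microglial markers were present, with 10 of 10 tested, and all 10 had differences below 0, with a median of -0.29 on the log2 scale, or -0.15 without PGC-1αf/f replicate 3. Of these, Tmem119 (-0.02) and Csf1r (-0.05) lay near 0, and Fcrls (-0.41) had a control value on PGC-1αf/f replicate 3 only. The lowest difference of these markers was that of Cx3cr1 (-0.51), with groups that did not overlap. The mPGC-1α mice carry Cre in the Cx3cr1 locus and the controls carry none, and the part of this in that value was not tested. The part of the microglial markers in the lower channel values was not tested either. Oligodendrocyte markers, 6 of 6 tested (1 only through its signal in the controls), all had differences below 0, with a median of -0.58, or -0.42 without that array. Neutrophil markers, 10 of 10 tested (2 only through their signal in the mPGC-1α group), had a median difference of 2.07, and of 0.35 without PGC-1αf/f replicate 3. Ly6g, with the highest difference of these (3.26), had a control value on PGC-1αf/f replicate 3 only. For example, the neutrophil transcript S100a8 read 1.66 on that array and 4.44 to 4.70 on the others. In such bulk samples, fewer cells of a type and less RNA per cell cannot be told apart.

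Over the 9 channel genes tested, 4 differences were above 0 and 5 below, with a median of -0.01 and a range from -0.63 to 0.51 on the log2 scale. The median over all genes tested was 0.02, and the middle 90% of genes lay between -0.47 and 0.91. By limma with Benjamini-Hochberg adjustment, 0 of 12 channel probes passed the threshold, with adjusted p-values from 0.164 to 0.987, and over all probes 20 of 25257 passed (0.0792%). At an unadjusted p under 0.05, 3 of the 12 channel probes were higher in mPGC-1α microglia, against 7.53% of all probes, and 1 was lower, against 9.21%. The 3 higher probes measured Trpm2, Kcnn4 and Kcnk6, and the lower 1 measured Kcnj2. The Kcnk6 probe entered the test only through its signal in the mPGC-1α group, and with a filter asking for such signal on every array it was left out and 3 channel probes in place of 4 had such a p. Among the 8 channel genes with a value on all 6 arrays, the groups did not overlap for 1 higher gene (Trpm2), against 12.2% of all genes, and for 2 lower genes (Kcnk12 and Kcnj2), against 10.8%. The set is too small to read a departure from these shares.

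**Figure D1:**
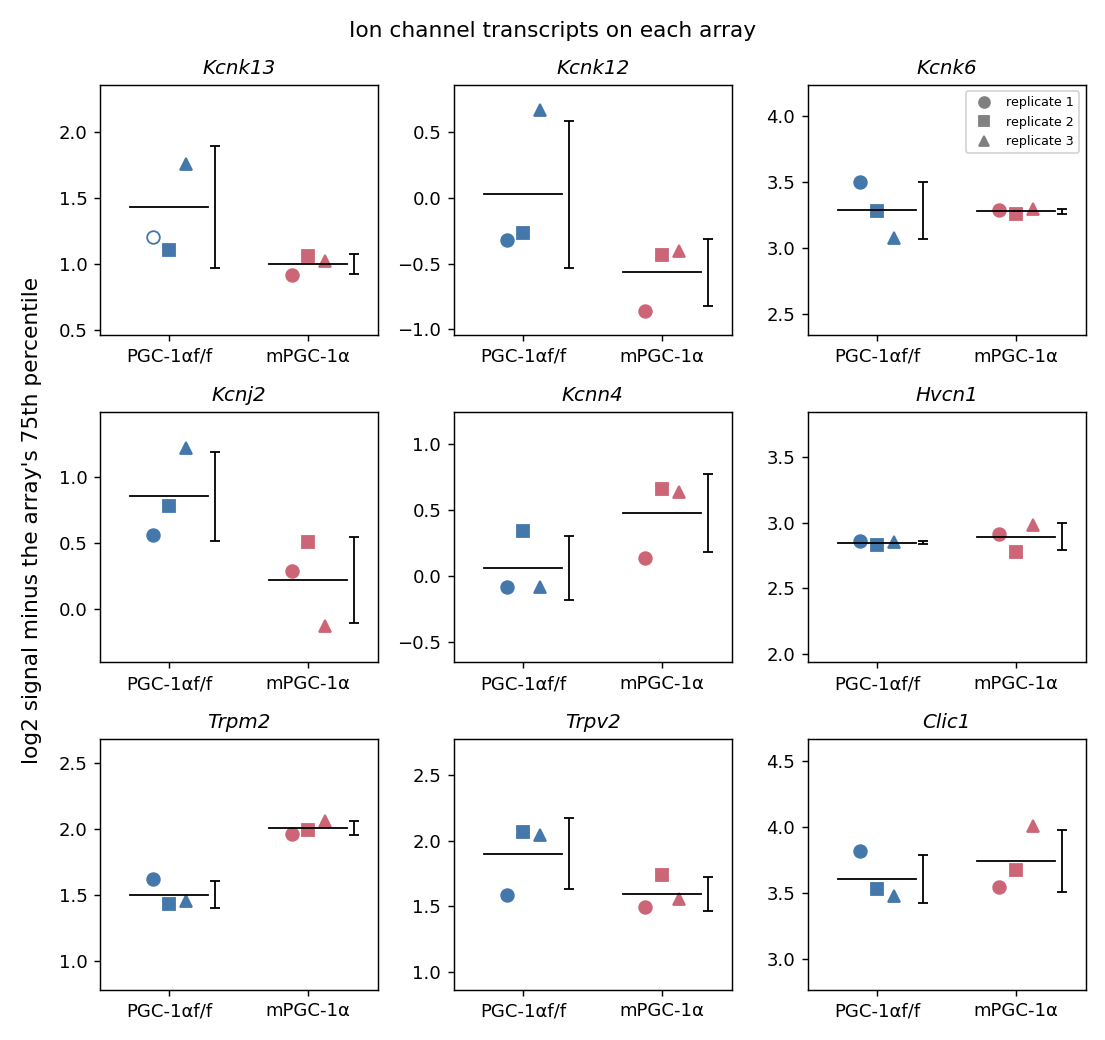
Signal of the 9 tested channel genes on each array, as log2 signal relative to the 75th percentile of that array, by group, 1 probe a gene. Points are arrays, with the shape giving the replicate number, lines are group means and bars are ± 1 SD. Panels span the same height on different ranges. The open point for Kcnk13 is the spot with an outlier mark, which was left out of the mean. Trpm2 shows the mPGC-1α points above the controls, and Kcnk13, Kcnk12 and Kcnj2 have their highest point on PGC-1αf/f replicate 3.

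Among the K2P channels, Kcnk13 was lower in mPGC-1α microglia by an amount set largely by 1 control array. Its probe read 1.11 and 1.76 on PGC-1αf/f replicates 2 and 3, and the spot of replicate 1 carried the scanner's outlier mark and was left out. On the mPGC-1α arrays it read 0.92, 1.06 and 1.02. The mPGC-1α values lay close together, below both control values. The means were 1.44 ± 0.46 (SD, n = 2) and 1.00 ± 0.07 (SD, n = 3), a difference of -0.43 (SE 0.23) or 0.740-fold, with a 95% interval of -0.99 to 0.12 and a limma adjusted p of 0.375. With the marked spot kept, at 1.21, the difference was -0.36 (SE 0.20, 95% interval -0.82 to 0.10, limma adjusted p = 0.379), and the groups still did not overlap. Leaving out PGC-1αf/f replicate 3 brought it to -0.11, leaving out replicate 2 instead gave -0.76, each against the 1 control array that was left, and between the arrays of slide column 2 it was -0.05.

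Kcnk12, which encodes THIK-2, a relative of THIK-1 that assembles with it, had its highest value on the same array. It read -0.32, -0.27 and 0.67 in the PGC-1αf/f group against -0.86, -0.44 and -0.40 in the mPGC-1α group. All 3 mPGC-1α arrays were below all 3 controls, of which replicate 3 was far above the other two. The means were 0.03 ± 0.56 and -0.57 ± 0.25 (SD, n = 3 each), a difference of -0.59 (SE 0.29, 95% interval -1.28 to 0.10, limma adjusted p = 0.350). It was -0.27 when PGC-1αf/f replicate 3 was left out, and within slide columns 1 and 2 it was -0.53 and -0.17.

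Kcnk6, which encodes TWIK-2, a potassium efflux channel known to act upstream of NLRP3 in macrophages, gave different results from its 2 probes. The brighter probe read 3.50, 3.28 and 3.07 in PGC-1αf/f and 3.28, 3.26 and 3.29 in mPGC-1α microglia. The groups overlapped, and the difference of -0.01 (SE 0.15) had a 95% interval of -0.36 to 0.35 and a limma adjusted p of 0.987. The dimmer probe, for the same accession, was near background and read -3.46, -3.43 and -3.62 against -2.82, -3.09 and -2.99. It was well above background on 2 of 3 control arrays and 3 of 3 mPGC-1α arrays, so that it was tested only because of the group in which it read higher. Its difference of 0.54, or 0.48 without PGC-1αf/f replicate 3, is given as a description.

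The inward rectifier Kcnj2, whose channel Kir2.1 passes potassium at potentials below rest, had the lowest difference of the 9 genes. It read 0.56, 0.79 and 1.22 in the PGC-1αf/f group against 0.29, 0.51 and -0.13 in the mPGC-1α group. The highest mPGC-1α value, 0.51, lay just under the lowest control value, 0.56. The means were 0.86 ± 0.34 and 0.22 ± 0.33 (SD, n = 3 each), a difference of -0.63 (SE 0.23) or 0.645-fold, with a 95% interval of -1.19 to -0.08. The unadjusted limma p was 0.0312 and the adjusted p was 0.265. Both replicate 3 arrays lay at the outer ends of their groups, and without them the difference was -0.27, the mean of slide columns 1 and 2 (-0.27 each). On none of the arrays was a second Kcnj2 probe well above background.

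Kcnn4, whose channel KCa3.1 opens on a rise in intracellular calcium and keeps the potential negative during calcium entry, was measured by 3 probes. The brightest read -0.08, 0.34 and -0.08 in PGC-1αf/f and 0.13, 0.66 and 0.63 in mPGC-1α microglia. PGC-1αf/f replicate 2 lay above mPGC-1α replicate 1, so the groups overlapped. The difference was 0.42 (SE 0.20) or 1.34-fold, with a 95% interval of -0.06 to 0.90 and a limma adjusted p of 0.345. The next probe, for another accession of the gene, read -1.70, -1.39 and -2.02 against -1.38, -0.81 and -0.99. Here the groups touched without overlapping, with control replicate 2 and mPGC-1α replicate 1 nearly equal. Its difference was 0.64 (SE 0.22, unadjusted p = 0.0228, limma adjusted p = 0.246), and 0.48 without PGC-1αf/f replicate 3. The third probe was well above background on 0 arrays.

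Kcna3, whose channel Kv1.3 is linked to reactive microglia, gave no signal well above background. Its single probe read between 25.4 and 62.3 intensity units and was well above background on 0 of the 6 arrays. No difference was computed for it. Kv1.3 is also known from T cells, and of 9 lymphocyte markers with a probe 6 were bright enough to be tested, with a median difference of 0.94, or 0.35 without PGC-1αf/f replicate 3.

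Hvcn1 held nearly the same level on all arrays. It read 2.86, 2.83 and 2.85 in the PGC-1αf/f group against 2.91, 2.78 and 2.99 in the mPGC-1α group. The difference was 0.04 (SE 0.12), and its 95% interval from -0.25 to 0.34 left room for a change of up to 1.26-fold upward (limma adjusted p = 0.877).

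Trpm2, a calcium-permeable cation channel gated by ADP-ribose, had the highest difference of the 9 genes and the smallest p of the set. It read 1.62, 1.43 and 1.45 in the PGC-1αf/f group against 1.96, 2.00 and 2.07 in the mPGC-1α group. All 3 mPGC-1α arrays lay above all 3 controls, and the gap between the groups was wider than the range within either. The means were 1.50 ± 0.10 and 2.01 ± 0.05 (SD, n = 3 each), a difference of 0.51 (SE 0.13) or 1.42-fold, with a 95% interval of 0.21 to 0.80. The unadjusted limma p was 0.0051 and the adjusted p was 0.164. The difference was 0.48 without PGC-1αf/f replicate 3, and 0.34 and 0.56 within slide columns 1 and 2. Neutrophils are known to express Trpm2 too. The summed signal of 9 neutrophil markers ranged from 3.77 to 6.84 on the log2 scale in controls and from 6.85 to 7.09 in mPGC-1α microglia, and its part in the Trpm2 difference was not tested. On PGC-1αf/f replicate 3 the neutrophil sum was lowest, at 3.77, and Trpm2 read 1.45. A second Trpm2 probe was well above background on 1 array, of the mPGC-1α group, and was not tested.

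Trpv2, a heat- and stretch-sensitive cation channel used in phagocytosis, read 1.59, 2.07 and 2.04 in PGC-1αf/f and 1.49, 1.74 and 1.55 in mPGC-1α microglia. The lowest control, replicate 1, fell among the mPGC-1α values. The difference was -0.31 (SE 0.17), with a 95% interval of -0.72 to 0.11 and a limma adjusted p of 0.401. It was -0.46 without PGC-1αf/f replicate 1 and -0.23 without replicate 3.

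Clic1, a redox-sensitive protein that inserts into membranes as a chloride channel, was the most repeatedly measured gene of the set, with 10 spots of 1 probe per array. The spots of an array varied by an SD of 0.04 to 0.07 on the log2 scale, whereas the arrays read 3.82, 3.54 and 3.48 in PGC-1αf/f and 3.55, 3.68 and 4.01 in mPGC-1α microglia. The spread between arrays was therefore several times that between spots, and the groups overlapped. The difference was 0.13 (SE 0.17, 95% interval -0.28 to 0.55, limma adjusted p = 0.715). The other Clic1 probe gave 0.14 (SE 0.15, limma adjusted p = 0.649).

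**Figure D2:**
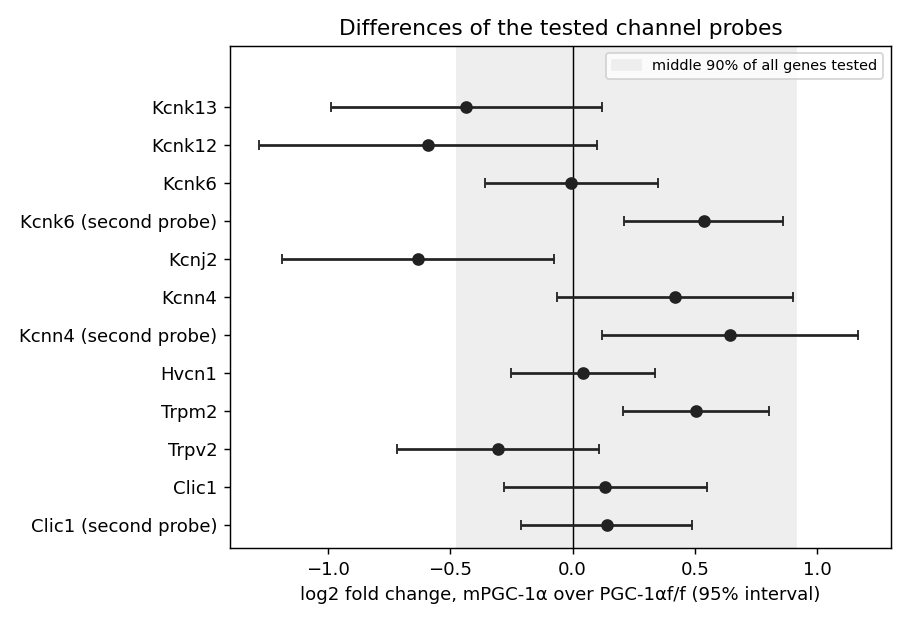
Difference between mPGC-1α and PGC-1αf/f microglia for each of the 12 tested channel probes, as log2 fold change with its 95% interval from limma, which is not adjusted for the number of probes. The grey band marks the middle 90% of the differences of all genes tested, from -0.47 to 0.91. Intervals of 4 probes, for Trpm2, Kcnk6, Kcnn4 and Kcnj2, do not reach 0, of which the Kcnk6 probe was tested only through its signal in the mPGC-1α group.

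The promoter windows of Trpm2, Kcnk12 and Kcnj2, whose groups did not overlap, are printed here with that of Kcnk13, which has values on 2 control arrays only. RefSeq windows (GRCm38.p6, 250 bases before to 50 after the start) were found for 8 of the 10 genes, in 10 windows. Each was searched on both strands for AAGGTCA, the half-site of the ERR receptors that PGC-1α coactivates, and for GAGGAAG, a core motif of the microglial factor PU.1. The 2 motifs can share letters where they abut, and no window held such a case. AAGGTCA was in 0 of the 10 windows, and 4.71% of 32544 promoters hold it. GAGGAAG was in 5 of the 10 windows, for the 4 genes Kcnj2, Kcnk12, Clic1 and Trpv2, and 13.4% of promoters hold it. Overlapping windows of Trpv2 hold the same site, at -14 and -41 from their starts, and were counted separately. The set is too small to read a departure from the share of all promoters. Capitals mark GAGGAAG or, on the opposite strand, CTTCCTC. Sequences are written 5′ to 3′ on the strand of the gene, and the GC content was 52.7% for Kcnk13, 64.3% for Kcnk12, 66.7% for Kcnj2 and 58.3% for Trpm2.
Kcnk13, chr12:99964249-99964548, plus strand: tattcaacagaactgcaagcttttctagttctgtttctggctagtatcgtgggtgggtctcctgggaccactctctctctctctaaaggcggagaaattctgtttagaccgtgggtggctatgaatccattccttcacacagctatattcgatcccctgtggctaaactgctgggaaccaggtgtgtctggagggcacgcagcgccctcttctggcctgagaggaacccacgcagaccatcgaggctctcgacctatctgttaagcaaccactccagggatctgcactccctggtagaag
Kcnk12, chr17:87797945-87798244, minus strand: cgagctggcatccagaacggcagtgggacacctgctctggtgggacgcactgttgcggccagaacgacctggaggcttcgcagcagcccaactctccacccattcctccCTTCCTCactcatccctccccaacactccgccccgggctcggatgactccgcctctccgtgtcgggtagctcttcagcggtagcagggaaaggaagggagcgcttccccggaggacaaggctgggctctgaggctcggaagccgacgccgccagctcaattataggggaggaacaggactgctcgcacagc
Kcnj2, chr11:111065914-111066213, plus strand: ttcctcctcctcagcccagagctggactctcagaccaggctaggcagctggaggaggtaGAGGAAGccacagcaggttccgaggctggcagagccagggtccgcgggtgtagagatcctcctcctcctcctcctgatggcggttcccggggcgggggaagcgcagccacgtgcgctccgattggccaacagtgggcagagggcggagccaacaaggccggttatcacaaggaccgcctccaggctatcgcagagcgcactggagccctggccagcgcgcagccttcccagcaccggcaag
Trpm2, chr10:77969823-77970122, minus strand: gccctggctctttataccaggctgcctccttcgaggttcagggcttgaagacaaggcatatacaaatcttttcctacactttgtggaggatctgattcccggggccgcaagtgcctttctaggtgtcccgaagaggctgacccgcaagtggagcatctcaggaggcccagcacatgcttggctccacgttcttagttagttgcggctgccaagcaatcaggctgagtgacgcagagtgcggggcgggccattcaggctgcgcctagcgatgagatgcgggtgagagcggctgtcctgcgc
The motif begins at position -191 of Kcnj2 and -141 of Kcnk12, counted from the start, and the windows of Kcnk13 and Trpm2 hold neither motif.

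The wider channel families contained no gene past the adjusted threshold either. Of 14 K2P genes with a probe 7 were tested, with a median difference of 0.06, or 0.02 without PGC-1αf/f replicate 3. Here and in the lists that follow each gene is represented by 1 probe, taken by its signal, so the dim Kcnk6 probe and the second Kcnn4 probe are not counted. On this count 7.92% of all genes had an unadjusted limma p under 0.05 and were higher in mPGC-1α microglia, and 5.83% were lower. In the K2P family 0 of 7 genes had such a p. Outside the set, Kcnk15 differed by 0.33 (limma adjusted p = 0.358) and Kcnk1 by 0.64 (limma adjusted p = 0.401), the latter by 0.25 when PGC-1αf/f replicate 3 was left out. Kcnk16 was well above background on 1 control array and 3 mPGC-1α arrays, and its difference of 0.39 is given as a description because it was tested only through the group in which it read higher. Of 17 inward rectifier genes and partners 6 were tested, with a median of 0.03, or -0.05 without PGC-1αf/f replicate 3. Kcnj2 and Kcnj12 (-0.54, limma adjusted p = 0.277), which encodes the close relative Kir2.2, were lower at an unadjusted p under 0.05 and no gene of the family was higher. The Kcnj12 groups overlapped, with PGC-1αf/f replicate 2 at -1.23 and mPGC-1α replicate 2 at -1.21. Kcnj13 and Kcnj10 differed by 0.31 and 0.14, and Kcnj13 by 0.10 without PGC-1αf/f replicate 3.

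Of 37 voltage- and calcium-gated potassium channel genes 15 were tested, with a median difference of 0.26, or 0.05 without PGC-1αf/f replicate 3. Unadjusted p-values under 0.05 were found for 2 lower and 0 higher genes by these probes. The lower ones were Kcnma1, the large-conductance calcium-gated channel BK, and Kcnd1, a subunit of fast-inactivating channels. Kcnma1 read -1.26, -1.31 and -1.07 in the PGC-1αf/f group against -2.17, -2.07 and -2.68 in the mPGC-1α group. The groups stood well apart, and the difference of -1.09 (SE 0.19) had a limma adjusted p of 0.103. It was -1.02 without PGC-1αf/f replicate 3 and -0.83 without both replicate 3 arrays. Kcnd1 differed by -0.72 (limma adjusted p = 0.232) and Kcnh1 by 0.72 (limma adjusted p = 0.329), the latter by 0.33 without PGC-1αf/f replicate 3.

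Of 25 TRP and mechanosensitive channel genes with a probe 11 were tested, with a median of -0.05, or -0.02 without PGC-1αf/f replicate 3. At an unadjusted p under 0.05, 2 were higher, Trpm2 and Trpv4. Trpv4, a channel opened by cell swelling, read 0.60, 0.64 and 0.09 against 1.20, 1.04 and 0.97. The groups did not overlap, and the difference of 0.63 (limma adjusted p = 0.205) was 0.45 without PGC-1αf/f replicate 3. Trpm3 differed by 1.03 with overlapping groups (limma adjusted p = 0.302), or by 0.52 without that array, and Pkd2 by -0.18. Trpm3, Trpv4 and the inward rectifier Kcnj13 each read lowest on PGC-1αf/f replicate 3 (-0.15, 0.09 and 1.94), and Pkd2 read highest there (0.93). The part of RNA from other cell types in these values was not tested. All 10 store-operated calcium entry genes were tested, with a median of 0.04. Itpr1, an endoplasmic reticulum calcium release channel, differed by 0.43 (0.26 without PGC-1αf/f replicate 3) and Orai1, the pore of the store-operated channel, by -0.29. Tmem64 had a control value on PGC-1αf/f replicate 3 only, so its difference of -1.03 is given with no test. By limma, 0 of the other genes of this list had an unadjusted p under 0.05.

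Of 30 chloride and anion channel genes 24 were tested, with a median of -0.03, or -0.01 without PGC-1αf/f replicate 3. Unadjusted p-values under 0.05 were found for 3 higher and 2 lower genes, which at this size is near the shares of all genes (7.92% and 5.83%). Best1, a calcium-gated anion channel, differed by 0.78 (limma adjusted p = 0.145), and by 0.65 without PGC-1αf/f replicate 3, with groups that did not overlap. Clic3, a relative of Clic1, differed by 1.32 (limma adjusted p = 0.254), and by 0.82 without that array. Clcn5, an endosomal chloride-proton exchanger, differed by -0.71 (limma adjusted p = 0.187). The other genes were Clic4 (limma adjusted p = 0.274), which was higher, and Clcn2 (limma adjusted p = 0.290), which was lower.

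Partners of the channels were described in the same way. All 7 NADPH oxidase genes, the source of the superoxide current that Hv1 balances, were tested, with a median of 0.11. Rac2 (0.44) and Ncf4 (0.45), activating subunits of the oxidase, had unadjusted p-values under 0.05 and limma adjusted p-values of 0.277 and 0.281. Cybb, the catalytic subunit, differed by 1.19 (limma adjusted p = 0.369), and by 0.44 without PGC-1αf/f replicate 3, where it read -2.46 against -0.44 to 0.51 on the other arrays. Neutrophils use these genes too, and the low Cybb value fell on the array with the lowest neutrophil sum. The part of neutrophil RNA in these values was not tested.

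Of the 13 genes around potassium efflux and the inflammasome 12 were tested, with a median of -0.08, or -0.01 without PGC-1αf/f replicate 3. Nlrp3 was not tested for lack of signal. P2ry12 and P2ry13, receptors for ADP of which the first is known to act on THIK-1, differed by -0.31 and -0.11, and P2rx7, the ATP-gated channel, by -0.12. The differences of P2ry12 and P2rx7 were both -0.03 with PGC-1αf/f replicate 3 left out. P2RY12 was the surface protein used to select the cells, and its transcript had a value on 5 arrays. Nek7, which NLRP3 needs for assembly, read -0.998, -1.24 and -1.01 in the PGC-1αf/f group against -2.01, -1.78 and -1.95 in the mPGC-1α group. The groups lay well apart, and the difference was -0.83 (SE 0.14, limma adjusted p = 0.097), or -0.79 without PGC-1αf/f replicate 3. Il1b, the cytokine transcript of the pathway, read -0.02, 1.60 and -0.50 against 2.16, 1.90 and 3.14. Its difference of 2.04 (SE 0.57, limma adjusted p = 0.194) came with a wide spread in both groups and was 1.24 without both replicate 3 arrays. Neutrophils and monocytes are known to express Il1b too. Monocyte markers, 5 of 5 tested, all had differences above 0, with a median of 1.08, or 0.35 without PGC-1αf/f replicate 3, beside the neutrophil median of 2.07 (0.35 without that array), and their part in the Il1b difference was not tested.

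**Figure D3:**
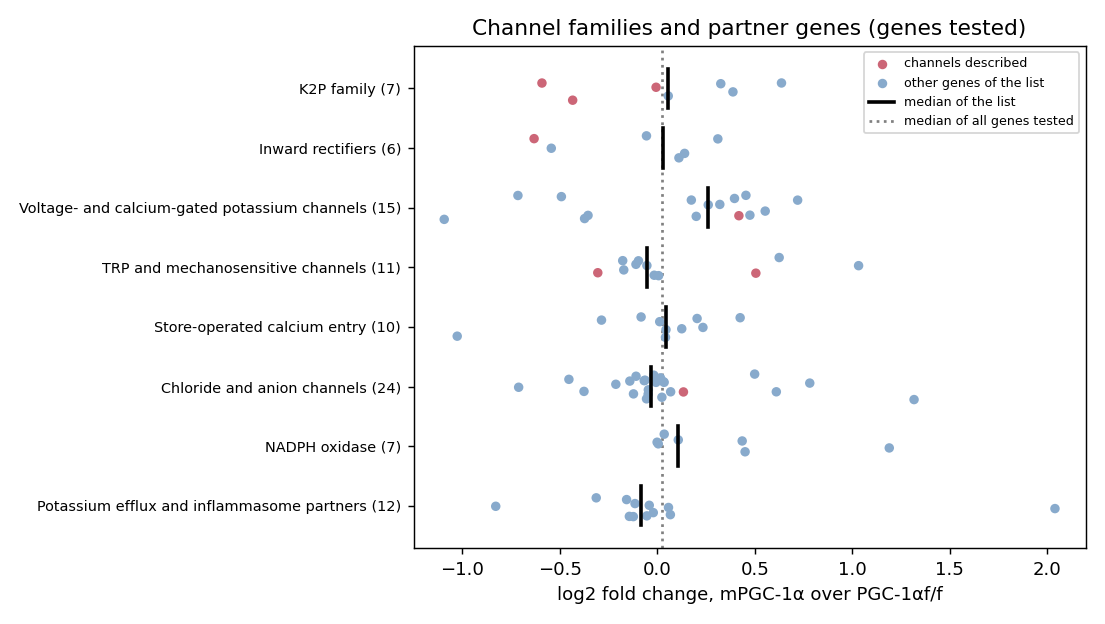
Differences of all tested genes of 8 lists of channel families and partner genes, as log2 fold change of mPGC-1α over PGC-1αf/f microglia, with the number of genes tested in brackets. Each point is a gene, red for the channels described, thick bars are list medians and the dotted line is the median of all genes tested, 0.02. Medians of the lists shown run from -0.08 to 0.26, and 0 of the genes shown passed the adjusted threshold. A further list is not shown or reported.

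The genes most like Kcnk13 across the 5 arrays on which its probe has a value were Fbxl2, Zkscan3, Tmem129, Rgs19 and Klhl25, with a Pearson correlation of 0.998 to 0.999. With so few arrays such values were common, since 962 of 15351 probes compared exceeded 0.9, and the pattern is mostly the high reading of PGC-1αf/f replicate 3.

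**Figure D4:**
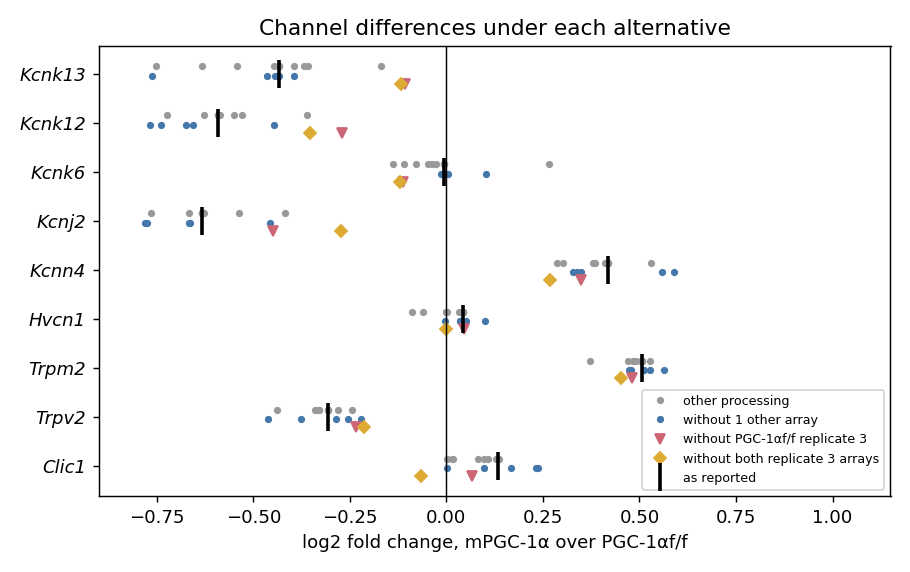
Difference of each tested channel gene between mPGC-1α and PGC-1αf/f microglia under 19 alternatives, as log2 fold change, with the reported value as a black bar. Grey points are other processing choices, blue points leave out 1 array, triangles leave out PGC-1αf/f replicate 3 and diamonds leave out both replicate 3 arrays. Trpm2 and Kcnn4 stay above 0 and Kcnk13, Kcnk12, Kcnj2 and Trpv2 stay below 0 in all of them, and Kcnk13 moves from -0.43 to -0.11 without PGC-1αf/f replicate 3.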

How the data were processed

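The authors amplified total RNA from isolated microglia, labelled it with Cy5 and hybridized it to 1-colour Agilent mouse arrays. The deposited scanner files hold intensity values from Feature Extraction 11.5.1.1, with background subtracted and spatial trends corrected. The methods name GeneSpring for normalization and no test per gene. The deposited table holds the same intensities without normalization between arrays. Here, the 75th percentile over 59305 non-control spots was subtracted from log2 intensity within each array, outlier spots were left out and spots of a probe averaged. Testing took the 25333 of 56605 probes that were well above background (at least 0.5 of spots) throughout 1 group or both, and 25257 gave a p. Names came from transcript accessions through RefSeq (GRCm38.p6), with 33767 probes matched to 1 gene. For each gene, the brightest tested probe with values on all 6 arrays stood for it, or else the brightest tested probe (Kcnk13, with 5 values).

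limma 3.58.1 (lmFit, eBayes, two-sided) in R 4.3.3 was tested on simulated data and applied to all probes with Benjamini-Hochberg adjustment. An exact permutation test of 3 against 3 cannot go below 0.1. The labels do not say that replicates are separate animals, so p-values measure the spread between these samples. The number of arrays limits the precision. Members, lists, motifs and the naming rule were chosen with earlier results of these data known. The rule named all channels, in each list up to 3 other genes with the smallest p, and 5 genes most like Kcnk13. P2rx7, P2ry13, Clic4, Clcn2 and S100a8 were named after their values were seen. One gene list is not reported here. Alternatives were 2 normalizations, normexp (offset 50), the deposited table, 2 filters, outlier spots kept, a replicate block, weighted arrays, robust eBayes with a trend, slide column as a random block, probe means, and leaving out arrays. Figures used matplotlib 3.10.9.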

Additional observations from a re-analysis of the deposited data

How the results depend on the processing

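By limma, 0 channel probes passed the adjusted threshold in 18 of 19 alternatives, with 0 to 0 when 1 array or both replicate 3 arrays were left out, and 1 passed with array weights (Trpm2, 0.53, adjusted p = 0.0441, where 754 probes passed in all). Trpm2 differed by 0.37 to 0.56 over the alternatives, with adjusted p-values from 0.0441 to 1. The median of the channel genes was -0.11 with quantile normalization, -0.14 with a median shift, -0.0786 with normexp and 0.0440 with probe means, and ran from -0.117 to 0.0497 when arrays were left out (-0.11 without PGC-1αf/f replicate 3, 0.0497 without PGC-1αf/f replicate 1). The median shift moved the median of all probes to -0.14. Channel genes with groups that did not overlap numbered 3 as reported (22.9% of all genes), 0 in the deposited table without normalization (9.69%) and 3 to 6 with arrays left out (28.6% to 42.8%), with 6 of 9 without PGC-1αf/f replicate 1 (42.7%) and 5 of 8 without mPGC-1α replicate 2 (31.5%). Smaller groups overlap less often by construction, so these counts are not read against each other.

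The sign of near-zero differences turned. Hvcn1 was -0.0616 with quantile normalization, -0.0887 with a median shift and -0.0013 with normexp, and ran from -0.0024 to 0.10 with arrays left out. Kcnk6 was 0.26 with probe means and ran from -0.12 to 0.10 with arrays left out. Clic1 ran from -0.0647 to 0.24, with -0.0647 without both replicate 3 arrays, an alternative chosen after seeing the data. Kcnk13 ran from -0.76 (PGC-1αf/f replicate 2 left out) to -0.11 (replicate 3 of that group left out). The cause was not tested. Same-numbered samples deviated together with correlations of 0.139, 0.127 and 0.0187, the last under 0.1, so no pairing was assumed. The replicate 3 arrays lay in slide columns 4 and 3, whereas same-numbered arrays otherwise shared a column, so that pair cannot show a column effect. With slide column as a random block (consensus correlation 0.349), 138 probes passed by limma in all, and 0 channel probes. There Trpm2 differed by 0.49 (limma adjusted p = 0.0941). With the replicate block 0 channel probes passed, Kcnk13 differed by -0.39, and 0 probes passed in all, against 4697 at an unadjusted p under 0.05.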
